A study of Homo sapiens with 6 samples.

Results

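The PAX, TBX, LHX, DLX, NKX, GATA and MSX genes and the sine oculis homeobox genes SIX2 to SIX6 encode DNA-binding factors that direct the formation of organs and tissues in the embryo. Members were taken by name: each gene whose symbol is one of these family names followed only by a number (any symbol that starts with NKX), and that had a probe set carrying no other symbol. This gave 61 of the 18132 genes measured, with 136 probe sets. The families held 13 TBX, 12 NKX, 9 PAX, 8 LHX, 6 DLX, 6 GATA, 5 sine oculis and 2 MSX genes. The cells were U87, a long-established glioma line of human origin, profiled on 6 Affymetrix arrays. For 3 arrays they had received a PCGF1-shRNA lentivirus, which encodes a short hairpin RNA (the PCGF1-shRNA group), and for the other 3 an NC lentivirus as negative control (the NC group). The medium of both groups was DMEM with fetal bovine serum. The labels name no hairpin sequence and do not say how many hairpins were used. The array names carry T0 for the knockdown and T1 for the control without explanation, so whatever these stand for cannot be told apart from the knockdown. The labels call the arrays biological replicates but name no separate cultures, and p-values then cover only the variation among these arrays, which may be technical.

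PCGF1 is the RING finger subunit that defines PRC1.1, a Polycomb complex that marks histone H2A with ubiquitin. Its subunit KDM2B has a zinc finger that binds unmethylated CpG dinucleotides and so brings the complex to CpG islands. Many genes of these families are known Polycomb targets. In cells of other lineages their promoters, often CpG-rich, can be held silent by Polycomb marks, and a gene is released where its factor is needed. The members were taken by name as candidate targets, and no Polycomb mark or binding was measured here. Whether the knockdown arrays carry more of their transcripts is therefore a question that the comparison addresses.

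Values are log2 signals of a gene relative to the median of the 6 arrays, averaged over its probe sets, and a log2 fold change is the PCGF1-shRNA mean minus the NC mean. The table holds no absolute signal, so it does not show whether a gene was expressed above background in either group. A difference near 0 can belong to an expressed gene or to one not detected on any array, and these cannot be told apart. For the same reason the labelled glial origin could not be checked against absolute levels of marker genes. The target itself was lower in the knockdown. PCGF1 was at -0.27, -0.13 and -0.19 in PCGF1-shRNA replicates 1 to 3 and at 0.13, 0.27 and 0.29 in the NC replicates, with no overlap. Its level, which rests on 1 probe set, was 74.3% of control, a log2 fold change of -0.43 ± 0.06 (SE, limma, adjusted p = 0.0041). An exact two-sided permutation test gave 0.1, the smallest p that 3 against 3 arrays allow. Of the 9 measured PRC1.1 subunits, 1 rose and 2 fell, where 6.36% of all genes rose and 4.63% fell. Besides PCGF1 these were BCOR, a scaffold subunit, at 0.20 ± 0.04, and RYBP, a subunit of variant PRC1 complexes, at -0.27 ± 0.04 (SE, limma, adjusted p = 0.0275 and 0.00468). Of 8 epithelial, 7 leukocyte and 7 endothelial marker genes, 0 passed limma's test in either direction, against 11% of all genes. Their lowest limma adjusted p was 0.089. By sign 75%, 57.1% and 100% of these lists were negative, in that order, against 53.4% of all genes. The medians were -0.0225, -0.019 and -0.053, and these differences were not tested. Of 10 genes listed as glial and mesenchymal markers 2 rose, or 20% against 6.36% of all genes, and 0 fell. This list held 3 positive and 7 negative values, with a median of -0.028. The risen genes were the matrix genes SPARC and FN1, at 0.56 ± 0.04 and 0.34 ± 0.04 (SE, limma, adjusted p = 0.000266 and 0.00301), and the lowest value was that of OLIG2, an oligodendrocyte lineage factor, at -0.23 (adjusted p = 0.26).

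The 61 genes were spread around 0 much as all genes were, and few passed the test. At an adjusted p under 0.05 in the limma fit over all genes, 3 of them were higher in the PCGF1-shRNA arrays, or 4.92%, against 6.36% of all genes. These were DLX5, SIX5 and GATA6. Lower calls numbered 0 of 61 by limma, against 4.63% of all genes. With an unadjusted p under 0.05, 2 members were lower, TBX19 and GATA5, or 3.28% against 12.4% of all genes. At an unadjusted p under 0.05 in either direction there were 9 members, or 14.8%, against 26.6% of all genes. Their median log2 fold change was -0.0052, next to -0.0081 over all genes, and the middle part of the distribution ran from -0.059 to 0.053 between the quartiles, against -0.072 to 0.065. By sign, 28 were positive and 33 negative, that is 54.1% negative against 53.4% of all genes. Log2 fold changes ran from -0.19 for NKX6-3 to 0.37 for DLX6. Only DLX6, DLX5, SIX5 and SIX6 lay above 0.2, and 0 lay below -0.2, so 6.56% of members were beyond that size against 9.81% of all genes.

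The width of the intervals says how large a difference in averaged signal these arrays could have missed. It sets no bound on the transcript of a gene below background, and it covers only the variation among these arrays. An average can also hide a larger difference in 1 probe set. In DLX5, probe set 11726841_a_at alone had an interval from 0.42 to 1.07. The 95% interval lay within a 1.5-fold change either way for 60 of 61 members, DLX6 being the exception with an upper bound of 0.68. For 53 members, or 86.9%, it lay within a 1.25-fold change, against 87% of all genes. Standard errors ran from 0.037 for DLX2 to 0.14 for NKX6-2, with a median of 0.059 against 0.05 over all genes. The 25 members that rest on 1 probe set had a median SE of 0.078, and the 36 with several had 0.053.

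**Figure D1:**
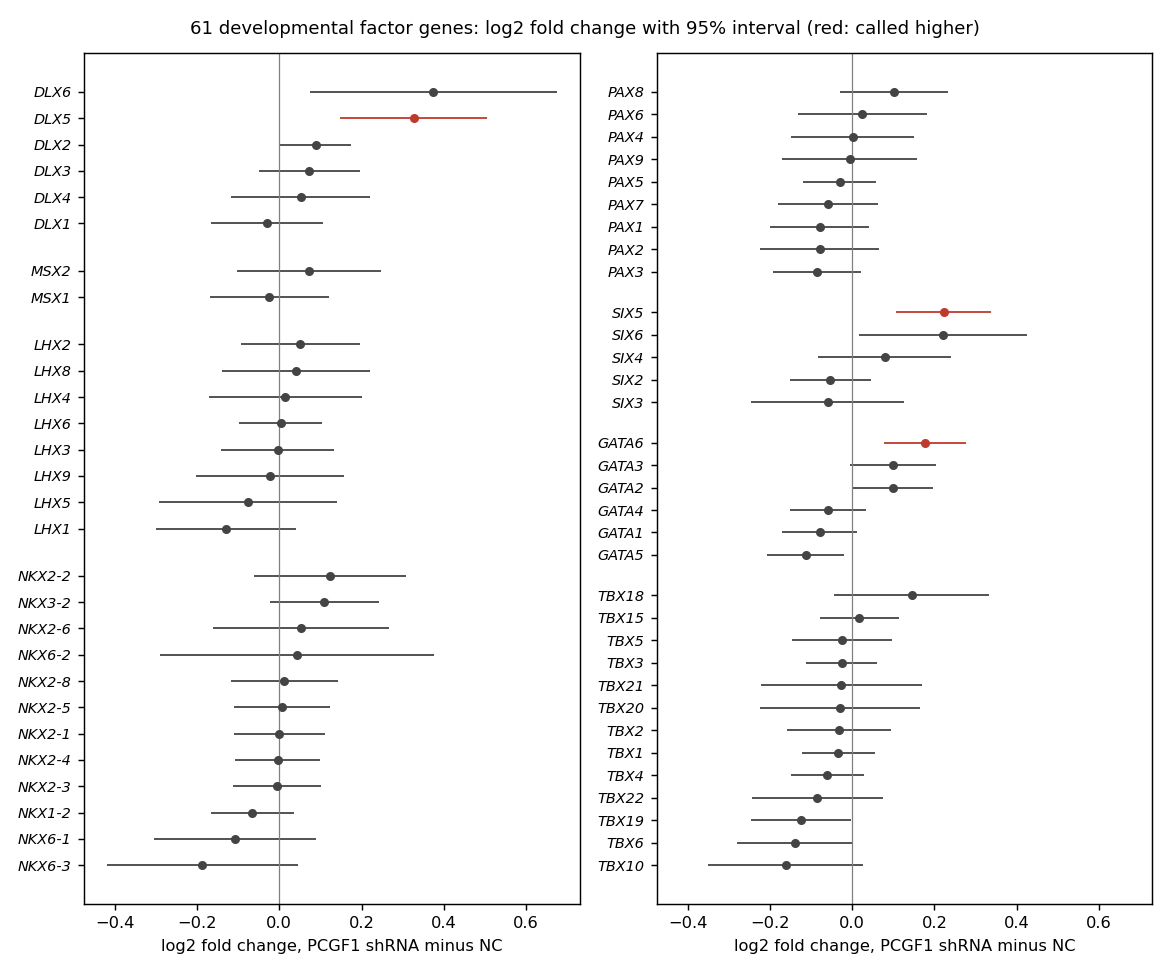
Log2 fold change of each of the 61 genes (PCGF1 shRNA minus NC, points) with its 95% interval (lines), grouped by family and ordered by size. The genes called higher, DLX5, SIX5 and GATA6, are red, and most other intervals include 0.

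**Figure D2:**
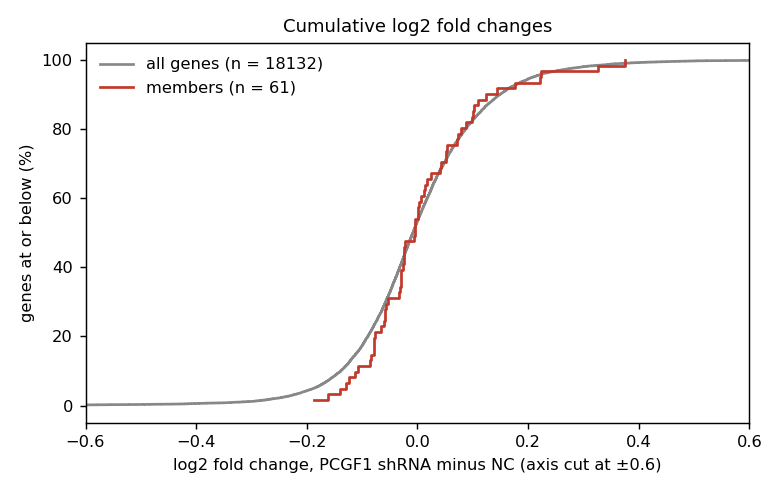
Cumulative share of genes (vertical axis, percent) at or below a log2 fold change (horizontal axis, cut at 0.6 either way), for the 61 members and for all 18132 genes. The curves cross near 0, and the members' curve starts at -0.19 where that of all genes has a longer lower tail.

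Promoter windows give the reference sequence at these genes. RefSeq windows of GRCh38.p14, each 300 bases long and mostly upstream of the start of the gene, matched 44 of the 61 members and 14425 of all genes measured by symbol. Of the 3 called genes GATA6 is among them, and DLX5 and SIX5 are not. A window was called CpG-rich at a GC share of at least 50% and a CpG observed over expected ratio of at least 0.6. By this rule 34 of 44 members were CpG-rich, or 77.3%, against 65.2% of all windows. The median window held 23 CpG dinucleotides in both sets, and members ranged from 2 in PAX4 to 41 in NKX1-2. All matched windows were CpG-rich in the DLX (3 of 6 genes matched), LHX (6 of 8), MSX (2 of 2) and sine oculis (3 of 5) families, against 7 of 8 NKX, 5 of 8 PAX, 6 of 10 TBX and 2 of 4 GATA windows. The median log2 fold change was -0.004 in the 34 CpG-rich members, GATA6 among them, and -0.069 in the other 10. This difference was not tested, and the same split was not made over all genes.

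Windows are printed for GATA6, which was called, for DLX6, whose neighbour DLX5 was called, for DLX2 and GATA2, which had a called probe set, and for PAX4 as the CpG-poorest. Capitals mark each CpG, the dinucleotide that KDM2B binds when it is unmethylated. Neither methylation nor binding was measured here, so the marked positions are not shown to be bound. The positions are chr18:22169339-22169638 on the + strand for GATA6, chr7:97005303-97005602 on the + strand for DLX6, chr2:172102851-172103150 on the - strand for DLX2, chr3:128493152-128493451 on the - strand for GATA2 and chr7:127618093-127618392 on the - strand for PAX4. They hold 25, 30, 30, 29 and 2 CpG in that order, and the sequences run 5′ to 3′ along the gene.
GATA6: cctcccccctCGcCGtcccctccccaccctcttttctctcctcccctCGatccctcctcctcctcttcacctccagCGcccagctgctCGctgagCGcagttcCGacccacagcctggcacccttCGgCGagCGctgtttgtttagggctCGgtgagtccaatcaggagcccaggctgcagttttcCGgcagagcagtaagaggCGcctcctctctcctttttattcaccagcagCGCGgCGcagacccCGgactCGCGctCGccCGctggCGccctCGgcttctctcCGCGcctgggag
DLX6: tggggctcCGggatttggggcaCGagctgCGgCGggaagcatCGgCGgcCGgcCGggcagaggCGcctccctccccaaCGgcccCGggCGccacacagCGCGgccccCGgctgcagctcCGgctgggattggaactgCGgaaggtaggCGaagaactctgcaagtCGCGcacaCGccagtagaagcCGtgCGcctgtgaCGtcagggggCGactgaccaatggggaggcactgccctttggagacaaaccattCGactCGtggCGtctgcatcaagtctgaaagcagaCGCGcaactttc
DLX2: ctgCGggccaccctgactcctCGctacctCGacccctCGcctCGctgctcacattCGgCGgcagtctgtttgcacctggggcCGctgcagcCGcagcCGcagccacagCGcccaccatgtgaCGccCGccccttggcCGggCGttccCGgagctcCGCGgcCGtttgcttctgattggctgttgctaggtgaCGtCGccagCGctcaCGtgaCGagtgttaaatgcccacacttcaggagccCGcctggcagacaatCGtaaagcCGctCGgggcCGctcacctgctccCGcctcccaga
GATA2: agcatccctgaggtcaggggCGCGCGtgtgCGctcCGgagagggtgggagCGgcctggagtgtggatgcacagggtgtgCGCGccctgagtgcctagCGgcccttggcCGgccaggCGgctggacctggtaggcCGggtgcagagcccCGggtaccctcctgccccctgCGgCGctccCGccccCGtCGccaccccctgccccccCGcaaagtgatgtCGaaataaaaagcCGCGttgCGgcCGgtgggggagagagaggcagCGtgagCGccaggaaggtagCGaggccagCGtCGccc
PAX4: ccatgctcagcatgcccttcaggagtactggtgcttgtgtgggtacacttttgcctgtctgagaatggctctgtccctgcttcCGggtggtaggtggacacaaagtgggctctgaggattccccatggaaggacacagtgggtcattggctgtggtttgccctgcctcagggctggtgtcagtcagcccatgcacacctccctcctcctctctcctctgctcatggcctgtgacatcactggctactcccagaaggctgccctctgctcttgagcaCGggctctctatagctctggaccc
CpG dinucleotides are spread along the first 4 windows, while PAX4, a pancreatic islet factor, had a log2 fold change of 0.0015 with 2 of them. The 4 windows with the most CpG belonged to genes of both signs, none of them called. NKX1-2, with 41 CpG, was at -0.066, TBX20, with 38, at -0.029, and TBX6 and NKX2-2, with 35 each, at -0.14 and 0.12.

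**Figure D3:**
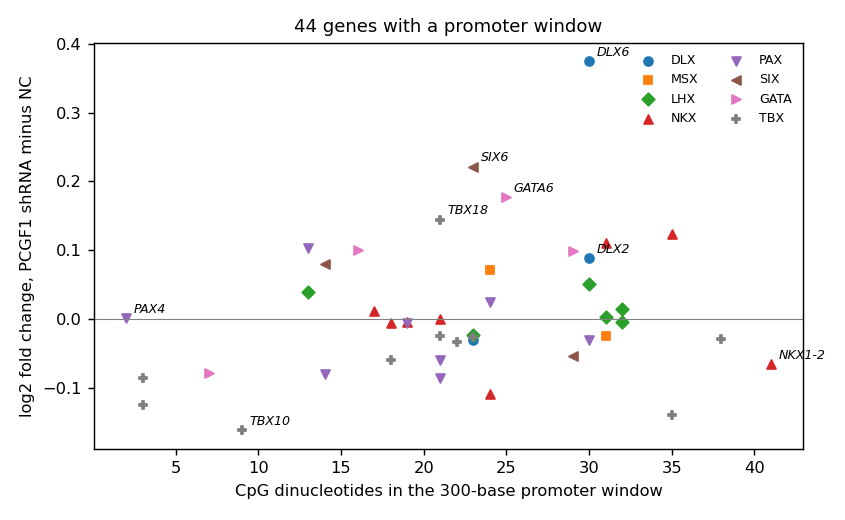
Log2 fold change (vertical axis) against the number of CpG dinucleotides in the promoter window (horizontal axis) for the 44 members with a window, one marker shape per family. Points of 20 and more CpG lie on both sides of 0, from TBX6 at -0.14 to DLX6 at 0.37.

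The DLX genes, distal-less homeobox factors of the forebrain, jaw and limb, held the largest positive differences. Of 6 genes 1 was called higher, or 16.7% against 6.36% of all genes. Positive log2 fold changes were seen in 5, so 16.7% were negative against 53.4% of all genes. The family median was 0.081, and these shares were not tested. DLX5, which acts in bone, craniofacial and interneuron development, was at 0.32, 0.12 and 0.15 in PCGF1-shRNA replicates 1 to 3 and at -0.083, -0.027 and -0.28 in the NC replicates. All knockdown arrays were above all control arrays. The means were 0.20 ± 0.11 and -0.13 ± 0.13 (SD, n = 3 each), and the level was 1.25-fold that of control, a log2 fold change of 0.33 ± 0.08 (SE, limma, adjusted p = 0.0357).

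The DLX5 average joins probe sets that disagree. Probe set 11726841_a_at read 0.74, 0.21 and 0.33 in the knockdown arrays and -0.22, -0.21 and -0.52 in the control arrays. Its rise was 1.68-fold, the largest of the 136 probe sets of these families, at 0.75 ± 0.14 (SE, limma over all probe sets, adjusted p = 0.0221). Probe set 11760651_a_at was at -0.093 ± 0.065 (SE) and did not pass (limma adjusted p = 0.448), with overlapping groups. The call on the DLX5 average was also lost with 1 array fewer, at limma adjusted p-values of 0.0996, 0.0539 and 0.0753 without PCGF1-shRNA replicates 1, 2 and 3 and of 0.073 and 0.0837 without NC replicates 1 and 3. It stood without NC replicate 2, and quantile normalization gave an adjusted p of 0.0529.

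DLX6 lies next to DLX5 on chromosome 7, with 0 protein-coding genes between them, and shares its expression domains in the embryo. It had the largest log2 fold change of the members, 0.37 ± 0.13 (SE), which did not pass (limma adjusted p = 0.109). Its single probe set read 0.51, 0.46 and -0.018 in the knockdown arrays against -0.02, -0.17 and 0.018 in the control arrays. PCGF1-shRNA replicates 1 and 2 were far above the controls and replicate 3 was among them. Without PCGF1-shRNA replicate 3 the value was 0.54 and passed (limma adjusted p = 0.00808). By size of rise DLX6 was number 175 and DLX5 number 283 of the 18132 genes.

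DLX2 and DLX1, neighbours on chromosome 2, specify inhibitory interneurons of the forebrain. DLX2 was at 0.051, 0.096 and 0.043 in the knockdown arrays and at -0.034, -0.035 and -0.0048 in the controls. The groups did not overlap, but the difference of 0.088 ± 0.037 (SE) did not pass (limma adjusted p = 0.18). Of its 3 probe sets only 11735181_a_at was called higher (0.30 ± 0.07, SE, limma adjusted p = 0.045), reading 0.31, 0.08 and 0.13 against -0.19, -0.11 and -0.08. The others were at -0.059 and 0.024. DLX1 was at -0.03, and DLX3 and DLX4, the pair on chromosome 17 active in skin, placenta and tooth, were at 0.073 and 0.052. GAD1, which encodes an enzyme of GABA synthesis and is a known target of DLX1 and DLX2 in interneurons, rose by 0.41 ± 0.05 (SE, limma, adjusted p = 0.00342), while GAD2 was at 0.036 (adjusted p = 0.727). Of 30 genes listed as downstream of the families GAD1 alone rose, or 3.33% against 6.36% of all genes. A link between GAD1 and the DLX values was not tested.

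The MSX genes, homeobox factors that answer BMP signals in limb and skull, did not pass. MSX1 was at -0.024 ± 0.062 and MSX2 at 0.071 ± 0.076 (SE), and the groups overlapped in both. BMP2, a ligand of that pathway that was listed here among genes read as downstream of the families, fell by 0.37 ± 0.06 (SE, limma, adjusted p = 0.00796). The ligand gene BMP4 was at -0.21 and did not pass (limma adjusted p = 0.219).

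The sine oculis homeobox factors, SIX2 to SIX6 here, work with EYA and DACH cofactors in eye, muscle, kidney and placode development. Of 5 genes 1 was called higher, or 20% against 6.36% of all genes. Positive values were seen in 3, so 40% were negative against 53.4% of all genes. The family median was 0.079, and these shares were not tested. SIX5, which is expressed in many adult tissues including muscle, was at 0.12, 0.078 and 0.24 in the knockdown arrays and at -0.05, -0.1 and -0.08 in the controls. Every knockdown array was above every control array. The means were 0.15 ± 0.08 and -0.077 ± 0.026 (SD, n = 3 each), a level 1.17-fold that of control and a log2 fold change of 0.22 ± 0.05 (SE, limma, adjusted p = 0.0285).

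Both probe sets of SIX5 were higher in the knockdown arrays. Probe set 11728385_a_at was at 0.24 (called, limma adjusted p = 0.0372) and 11728386_x_at at 0.21 (not called, adjusted p = 0.121), and in each the groups did not overlap. The call on the average was lost without PCGF1-shRNA replicate 1 or 3 (limma adjusted p = 0.0666 and 0.0745) and without NC replicate 1, 2 or 3 (0.063, 0.0888 and 0.0832). It stood without PCGF1-shRNA replicate 2.

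SIX6, a factor of the retina and pituitary, was at 0.075, 0.067 and -0.013 in the knockdown arrays and at -0.17, -0.38 and 0.013 in the controls. The groups overlapped through 1 array of each, and the difference of 0.22 ± 0.09 (SE) did not pass (limma adjusted p = 0.157), though it did at 0.32 without NC replicate 3 (adjusted p = 0.0454). Without NC replicate 2, the lowest array, it was at 0.12 (adjusted p = 0.32). SIX4, close to SIX6 on chromosome 14, was at 0.079, while the neighbours SIX2 of the nephron progenitors and SIX3 of the forebrain were at -0.053 and -0.059. None of the EYA partners was among the called genes: EYA1 was at 0.062, EYA2 at -0.056, EYA3 at 0.011 and EYA4 at 0.12.

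**Figure D4:**
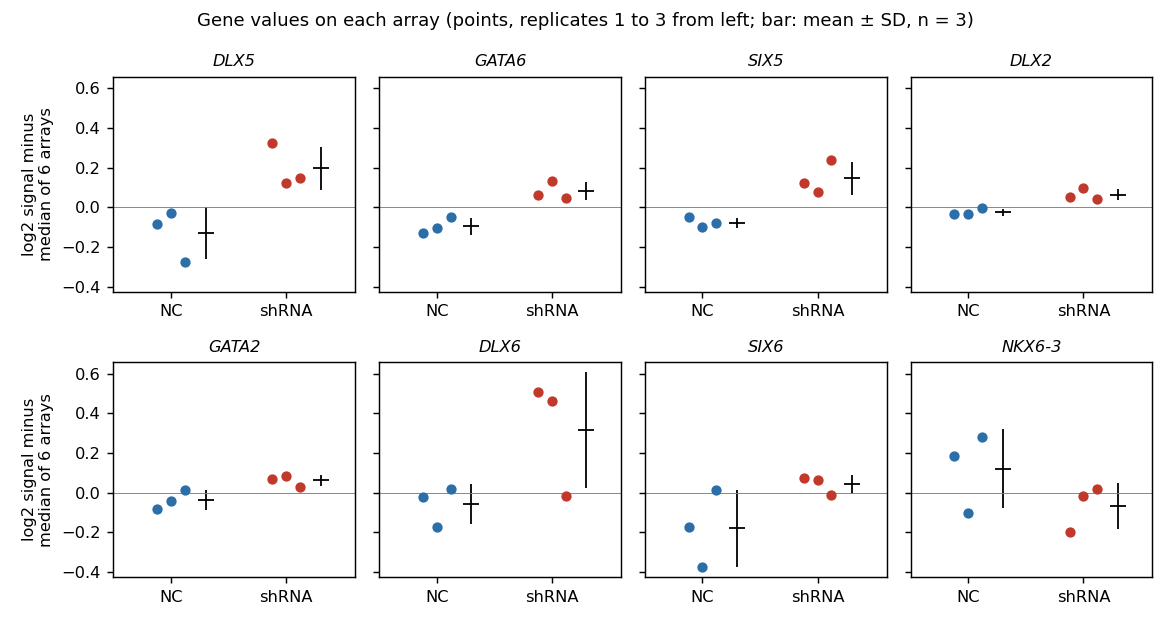
Values on each array for the 3 called genes, the 2 genes with a called probe set only and the 3 largest uncalled differences. Blue points are NC, red points PCGF1 shRNA, and bars give the mean and SD of 3 arrays on the log2 scale; DLX5, GATA6, SIX5, DLX2 and GATA2 show separate groups, and DLX6, SIX6 and NKX6-3 overlap.

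The GATA factors are zinc finger proteins, GATA1 to GATA3 best known from blood and GATA4 to GATA6 from heart, gut and other endoderm-derived organs. Their log2 fold changes were small and of both signs. The test called 1 of 6 higher, or 16.7% against 6.36% of all genes. In all 6 genes the groups did not overlap, 3 being higher in the knockdown arrays (GATA2, GATA3 and GATA6) and 3 lower (GATA1, GATA4 and GATA5). Over all 61 members this held for 6 higher and 5 lower genes, or 18%, against 32.7% of all genes, 17.1% higher and 15.5% lower. The called gene was GATA6.

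GATA6 was at 0.063, 0.14 and 0.048 in the knockdown arrays and at -0.13, -0.11 and -0.048 in the controls. The means were 0.082 ± 0.047 and -0.095 ± 0.043 (SD, n = 3 each), 1.13-fold, with a log2 fold change of 0.18 ± 0.04 (SE, limma, adjusted p = 0.039). It rests on 1 probe set, which did not pass in the fit over all probe sets (limma adjusted p = 0.0834). Its call was lost when any 1 array was left out, at limma adjusted p-values of 0.0826, 0.0993 and 0.0759 without PCGF1-shRNA replicates 1 to 3 and of 0.11, 0.11 and 0.0626 without NC replicates 1 to 3. It was lost too when probe sets whose names end in _s_at or _x_at were dropped for all genes (adjusted p = 0.056).

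GATA2, a factor of blood stem cells and endothelium, was at 0.069, 0.086 and 0.031 in the knockdown arrays against -0.083, -0.044 and 0.015 in the controls. Its difference of 0.099 ± 0.042 (SE) did not pass (limma adjusted p = 0.179). Of its 6 probe sets 11752208_a_at was called higher at 0.39 ± 0.08 (SE, 1.31-fold, limma adjusted p = 0.0261), reading 0.30, 0.36 and 0.079 against -0.18, -0.18 and -0.079, and the other 5 lay between -0.026 and 0.15. GATA3, the T helper 2 and breast luminal factor, was positive in its 3 probe sets, with a mean of 0.1 ± 0.045 (SE, adjusted p = 0.206). GATA5, a factor of heart and gut, was negative in its 3 probe sets, with a mean of -0.11 ± 0.04 (SE, limma adjusted p = 0.119) and array values of -0.016, -0.048 and -0.095 against 0.025, 0.066 and 0.089. GATA1 and GATA4 were at -0.079 and -0.058.

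**Figure D5:**
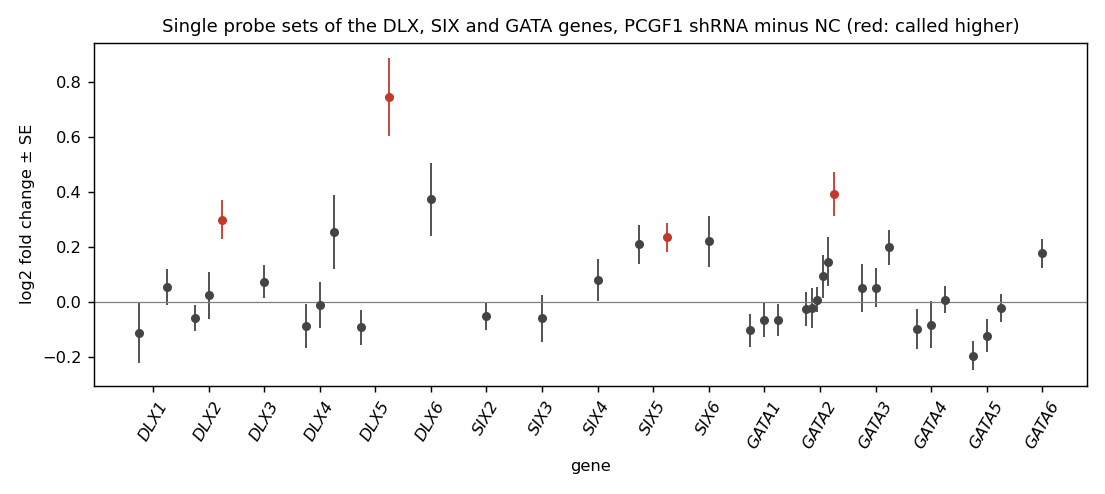
Log2 fold change with its SE for single probe sets of the DLX genes, SIX2 to SIX6 and the GATA genes (vertical axis), by gene (horizontal axis). The 4 probe sets called higher, red, belong to DLX2, DLX5, SIX5 and GATA2, and probe sets of the same gene differ in DLX2, DLX5 and GATA2.

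As single probe sets, 4 of 136 were called higher and 0 lower by limma over all probe sets, or 2.94% higher against 4.3% of all 49293, of which 7.24% were called in either direction. At an unadjusted p under 0.05 the counts were 11 higher and 4 lower, or 8.09% and 2.94%, against 12.7% and 10.5% of all probe sets and 23.2% in either direction. By sign 54 were higher and 82 lower, between -0.24 for a probe set of LHX1 and 0.75 for one of DLX5. Among the 36 genes with several probe sets, 15 had them all on one side, 7 higher and 8 lower.

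The PAX factors join a paired domain, in several members with a homeodomain, and act in kidney, eye, neural crest, muscle, thyroid and B cells. None of the 9 was called (lowest limma adjusted p = 0.287), and the groups overlapped in each. The median was -0.03, with 6 negative and 3 positive genes. PAX8, of thyroid and kidney, was highest at 0.10 ± 0.06 (SE), with its 4 probe sets between 0.062 and 0.18. PAX3, of neural crest and muscle, was lowest at -0.086 ± 0.046 (SE), with 5 of 6 probe sets negative. PAX6, the eye and cortical progenitor factor, was at 0.025 ± 0.068 (SE), with array values of -0.0052, 0.15 and -0.0043 against -0.024, -0.06 and 0.15, so that 1 array of each group stood apart. PAX5, the B cell factor, had 10 probe sets from -0.16 to 0.18 and a mean of -0.03 ± 0.039 (SE). PAX1, PAX2 and PAX7 were at -0.079, -0.079 and -0.059, and PAX9 at -0.006.

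The LIM-homeodomain genes of the LHX family pattern forebrain, spinal cord, pituitary and limb. Of 8 genes 0 were called (lowest limma adjusted p = 0.31), 4 were positive and 4 negative, and the median was -0.00043. LHX2, a regulator of cortex and hair follicle stem cells, was highest at 0.051 ± 0.063 (SE). LHX1, which acts in head formation and kidney, was lowest at -0.13 ± 0.073 (SE), with 3 negative probe sets. Its arrays read -0.25, -0.036 and 0.055 against 0.045, 0.082 and 0.032, so the difference came mostly from PCGF1-shRNA replicate 1. LHX6 and LHX8, both of ventral forebrain neurons, were at 0.003 and 0.04, LHX3 and LHX4 of the pituitary at -0.0039 and 0.014, and LHX5 and LHX9 at -0.076 and -0.023.

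The NKX genes specify thyroid, lung, heart, ventral neural tube, cartilage and pancreatic islet. Of 12 genes 0 were called (lowest limma adjusted p = 0.276), 7 were positive and 5 negative, with a median of 0.0034. NKX2-2, a factor of ventral neural progenitors and oligodendrocytes, was highest at 0.12 ± 0.08 (SE). It read -0.054, 0.26 and -0.017 in the knockdown arrays and -0.026, -0.07 and -0.082 in the controls, so that PCGF1-shRNA replicate 2 alone stood high. NKX3-2, a cartilage factor, was at 0.11 ± 0.058 (SE). NKX6-3, a factor of the stomach, was lowest of the 61 genes at -0.19 ± 0.10 (SE, limma adjusted p = 0.286), with -0.2, -0.019 and 0.019 against 0.19, -0.1 and 0.28. Its groups overlapped, as did those of each NKX gene. The value was -0.30 without NC replicate 2, -0.11 without NC replicate 3 and -0.12 without PCGF1-shRNA replicate 1, and passed in none of these fits (limma adjusted p = 0.0642, 0.569 and 0.56). NKX2-1, of lung, thyroid and ventral forebrain, was at 0.00041, NKX2-5, of the heart, at 0.0064, and NKX6-1, of islet beta cells and motor neurons, at -0.11 ± 0.086 (SE). NKX6-2, a factor of myelinating glia, had the widest interval, from -0.29 to 0.38, with PCGF1-shRNA replicate 3 at 0.43 and the other arrays between -0.15 and 0.16.

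The T-box genes act in heart, limb, somite and pharyngeal development. Of 13 genes 0 were called (lowest limma adjusted p = 0.181). Negative log2 fold changes were seen in 11, or 84.6% against 53.4% of all genes, with a median of -0.031. This difference in signs was not tested, and TBX1, TBX2, TBX3, TBX5, TBX20 and TBX21 each lay less than their SE below 0. TBX10, TBX6 and TBX19 lay lowest. TBX10 was at -0.16 ± 0.081, TBX6, a factor of the somite-forming mesoderm, at -0.14 ± 0.061 and TBX19, of pituitary corticotrophs, at -0.12 ± 0.053 (SE). TBX19 read 0.0054, -0.053 and -0.17 in the knockdown arrays against 0.04, 0.1 and 0.017 in the controls, and it and TBX4 of the hindlimb and lung, at -0.06, were the T-box genes whose groups did not overlap. TBX18, a factor of the sinus node and epicardium, was highest at 0.14 ± 0.081 (SE), with probe sets at 0.25 and 0.037, neither called (limma adjusted p = 0.0655 and 0.898). TBX2 and TBX3, which repress transcription, were at -0.031 and -0.025, and TBX5, of heart and forelimb, at -0.024 with 6 probe sets from -0.12 to 0.10. TBX1, TBX20, TBX21 and TBX22 lay between -0.085 and -0.026, and TBX15 was at 0.018.

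Many of these genes lie side by side, and in RefSeq 12 pairs of members had at most 2 protein-coding genes between them. The signs of the log2 fold changes were equal in 8 of the 12 pairs. Some pairs share a gene, and this count was not tested. DLX5 and DLX6, at 0.33 and 0.37, were the pair with both values highest, followed by SIX6 and SIX4 at 0.22 and 0.079 and DLX3 and DLX4 at 0.073 and 0.052. TBX3 and TBX5 were at -0.025 and -0.024, TBX2 and TBX4 at -0.031 and -0.06, and SIX2 and SIX3 at -0.053 and -0.059. NKX2-2 at 0.12 and PAX1 at -0.079, neighbours on chromosome 20, had opposite signs, as did DLX1 at -0.03 and DLX2 at 0.088. The same held for NKX2-8 at 0.012 and PAX9 at -0.006, and for NKX2-4 at -0.0041 and NKX2-2. None of these pairs had both genes called.

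Proteins that bind these factors or act as their corepressors were listed as partners. Of 23 partner genes 6 rose and 0 fell, 26.1% against 6.36% of all genes, with a median of 0.011 and 10 negative values. The list was chosen with earlier results of these data known, and the difference from other genes was not tested. TLE4, a Groucho corepressor recruited by several of these factors, rose by 0.38 ± 0.04 (SE, limma, adjusted p = 0.00134). LMO2, a LIM-only bridging protein that joins GATA factors, rose by 0.29 ± 0.05 (adjusted p = 0.0144). LDB1 and LDB2, the LIM-binding proteins that hold LHX factors in complexes, rose by 0.22 each (limma adjusted p = 0.0369 and 0.0335). Of 12 relatives that the naming rule leaves out, such as EOMES, TBXT and ISL1, 0 fell and 1 rose, or 8.33% against 6.36% of all genes. It was TRPS1, an atypical GATA protein that represses transcription, at 0.15 ± 0.04 (SE, limma, adjusted p = 0.0482).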

How the data were processed

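Total RNA was labelled with biotin and hybridised to 6 Affymetrix arrays, 3 per group, per the labels. The deposited log2 values were made by the authors with RMA, version not given, per the submitters' processing notes; the file states no log base, and log2 is inferred from RMA. The values also show that each probe set was centred on the median of its 6 arrays (largest departure 4.85e-07), a step no source used here describes. No brightness filter could therefore be applied, and precision is limited by the number of arrays. Of 49395 probe sets 102 controls were left out. In the platform annotation 44988 of the rest had 1 symbol, 1832 several and 2473 none. Probe sets with 1 symbol were averaged per gene, and 18132 genes were compared with limma 3.58.1 in R 4.3.3 (lmFit, eBayes, two-sided, no covariates), with Benjamini-Hochberg adjustment over all genes and a threshold of 0.05. Single probe sets were fitted likewise over all 49293. Intervals are 95%. The fit was tested on simulated data.

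Array medians lay between -0.00238 and 0.00399, the first principal component of the gene values held 50.4% of the variance, and no 2 arrays were duplicates (smallest root mean square difference 0.135). The members and lists were chosen with earlier results of these data known. Values on each array are given for called members, those with a called probe set, the 3 largest uncalled differences, and some others chosen after their values were seen. Of the related lists, called genes are named up to 4 per direction, and uncalled partners or targets of a member were added. Alternatives tried were other probe set summaries, normalizations and variance models, array weights, a replicate block and leaving out each array. Promoter windows came from RefSeq GRCh38.p14.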

Additional observations from a re-analysis of the deposited data

How the results depend on the processing

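PCGF1 stayed lower and past the limma threshold in all 13 alternatives (log2 fold change -0.48 to -0.39), and 0 members were called lower in any. The median of the members stayed between -0.016 and 0.0044. The count of members called higher, 3, was 2 with the most variable probe set per gene, without _s_at and _x_at probe sets and after quantile normalization, and 4 as single probe sets. Leaving out 1 array gave 0 to 1, with 0 without PCGF1-shRNA replicate 1 or NC replicate 1, while 5.4% to 7.73% of all genes were still called in these fits. The called gene was SIX5, DLX6, DLX5 and SIX6 without PCGF1-shRNA replicates 2 and 3 and NC replicates 2 and 3. The replicate number as a block gave 1, DLX5, and reduced the calls over all genes from 1994 to 1036. Arrays with the same number did not deviate together (correlations of their deviations across genes -0.042, -0.0511 and 0.0116). The labels do not say whether the numbers pair the arrays, and with 3 arrays per group these correlations cannot settle it. With the most variable probe set, SIX5 and GATA6 were not called (limma adjusted p = 0.137 and 0.119) and GATA2 was (0.39, adjusted p = 0.0288). For DLX5, GATA6, SIX5, DLX2, GATA2, DLX6, SIX6 and NKX6-3, the members refitted one by one, no alternative changed a sign, 22 results lost their call and 3 gained one. Signal over background is not known, so the values do not show which members are expressed.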

Other observations

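Homeobox genes of other developmental families were also counted. Of 65 measured, 1 rose and 0 fell by limma, 1.54% higher against 6.36% of all genes, with a median log2 fold change of -0.037. The gene was PITX1, a hindlimb and pituitary factor, at 0.23 ± 0.04 (SE, limma, adjusted p = 0.013). Of 30 genes commonly read as downstream of the members, 1 rose (GAD1) and 3 fell, where 6.36% of all genes rose and 4.63% fell. Besides BMP2, these were NCAM1, a neural cell adhesion molecule, at -0.15 ± 0.04, and AFP, the fetal liver protein, at -0.15 ± 0.04 (SE, limma, adjusted p = 0.0403 and 0.0451). Of 13 PRC2 subunits 1 rose, or 7.69% against 6.36% of all genes, and 1 fell, against 4.63% of all genes. The first was EZH1, a methyltransferase of the complex, at 0.20 ± 0.05. The second was PHF19, an accessory subunit that binds chromatin, at -0.19 ± 0.04 (SE, limma, adjusted p = 0.0295 and 0.0197).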
